A study of Danio rerio with 4 samples.

Results

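The transcription factor families that pattern the vertebrate nervous system were examined in whole zebrafish embryos with and without an activated NUP98-HOXA9 gene. Members were all genes with a pax, sox, zic, lhx, dlx, otx, irx, nkx, neurod, neurog or ascl symbol followed by a paralogue number, either in the annotation of the array's probes or as the current RefSeq symbol. The rule gave 78 genes from 11 families, out of 13263 items tested (named genes plus unnamed probes). The members carried 139 probes, with 1 probe for 37 genes and from 2 to 6 for the other 41. The genes paxbp1, paxip1 and paxx share letters with a family but are no paralogues and were left out.

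NHA9 embryos came from a fish line carrying NUP98-HOXA9 (a fusion gene found in human myeloid leukaemia) behind a floxed eGFP cassette under the myeloid spi1 promoter, crossed to a line with Cre under the hsp70 heat shock promoter. The lGl control embryos carried the same floxed transgene with the cassette in place, because that line had been crossed to wild-type AB fish. Both kinds were kept at 37 °C for 1 hour at 24 hours post-fertilization, then returned to 28 °C, and RNA was taken from them at 28 hours post-fertilization, 4 hours after the heat shock. Cre, the second parent and the fusion gene differed together and cannot be told apart. The labels name 2 RNA extracts for each kind of embryo and do not give the number of embryos behind an extract. Each NHA9 extract was hybridised with the lGl extract of the same replicate number on 2 arrays of opposite dye orientation, a forward array (NHA9 in Cy5) and a dye swap.

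Each of these families encodes DNA-binding proteins. Many are switched on in particular regions of the embryo by signals from neighbouring tissue, and their combinations help give a region its identity. Others act in neural progenitors or in differentiating neurons. Pax, Otx, Lhx, Dlx, Irx and Nkx proteins carry a homeodomain, a paired domain or both, Sox proteins bind through an HMG box, Zic proteins through zinc fingers, and Neurod and Neurog proteins through a basic helix-loop-helix domain. Many members are also used outside the nervous system, in the neural crest, ear, kidney, pharynx, heart, cartilage or muscle.

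Values are log2 ratios of NHA9 over lGl, so a value of 1 is a doubling. The direction and the log base are not stated with the deposited values. NHA9 over lGl is the likely direction from the titles and dyes of the forward arrays, and all 4 columns are read as 1 contrast because an array and its dye swap correlated positively as deposited (r = 0.747 in replicate 1 and 0.465 in replicate 2 over all probes). If the deposited ratio runs the other way, every sign below turns. An array and its dye swap measure the same 2 extracts and were averaged, so n = 2. limma, fitted over all items, tested whether a gene's mean over the replicates differed from 0. The pooled standard error was 0.30, the 95% interval of each mean was ±0.59, and no ratio smaller than 0.96 in size was called at an adjusted p of 0.05. No spot brightness was analysed here, so how far a probe stood above background is unknown. Because only ratios of whole-embryo RNA were available, fewer cells of a type and less RNA per cell cannot be told apart.

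The midbrain-hindbrain boundary gene pax2b was the only member past the threshold, and it was lower in NHA9 embryos. Its log2 ratio was −0.74 on the forward array and −0.87 on the dye swap of replicate 1, and −1.65 and −1.92 on those of replicate 2. All 4 arrays lay below 0, with replicate 2 below replicate 1. The mean was −1.30 ± 0.69 (SD, n = 2; limma adjusted p = 0.00126), a call that rests on 1 probe. This p-value used the SD of 0.43 shared by all items, which is smaller than the 0.69 of pax2b itself. A fit that blocked on replicate without a dye term ended the call (limma adjusted p = 0.0929), and so did turning the dye swap columns as their dyes imply, which put the mean at 0.10. Over all items 0.792% were called lower and 2.04% higher, and among the 78 members 1 was called lower and 0 higher. At an unadjusted p under 0.05, 3 members were lower, pax2b and lhx5 among them, and 0 higher, against 4.31% and 6.14% of all items. No other member passed the threshold over all items.

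Most members shared a sign in replicate 2. There, 67 of the 78 (85.9%, against 46% of all items) had a mean ratio below 0, and the median was −0.37. In replicate 1 only 25 (32%, against 47.3%) lay below 0, and the median was 0.08. The medians of all items were 0.06 in replicate 2 and 0.02 in replicate 1. Both arrays of replicate 2 were below 0 for 53 members (67.9%), against 32% of all items, and both were above 0 for 9 (11.5%), against 37.6%. In replicate 1 both arrays were above 0 for 39 (50%), against 39.8%, and below 0 for 17 (21.8%), against 34.7%. A total of 30 members (38.5%) were above 0 on both arrays of replicate 1 and below 0 on both arrays of replicate 2, against 11.2% of items, and 2 showed the reverse, against 11.3%. The 2 arrays of replicate 2 lay below both arrays of replicate 1 for 47 members (60.3%, against 29.7%) and above both for 4 (5.13%, against 31.4%). These shares describe 2 pairs of extracts, and the difference between the replicates was not tested. They also rest on reading all 4 columns as 1 contrast. With the dye swap columns turned, 58 members were below 0 in replicate 2 and 52 in replicate 1, with medians of −0.09 and −0.06.

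**Figure D1:**
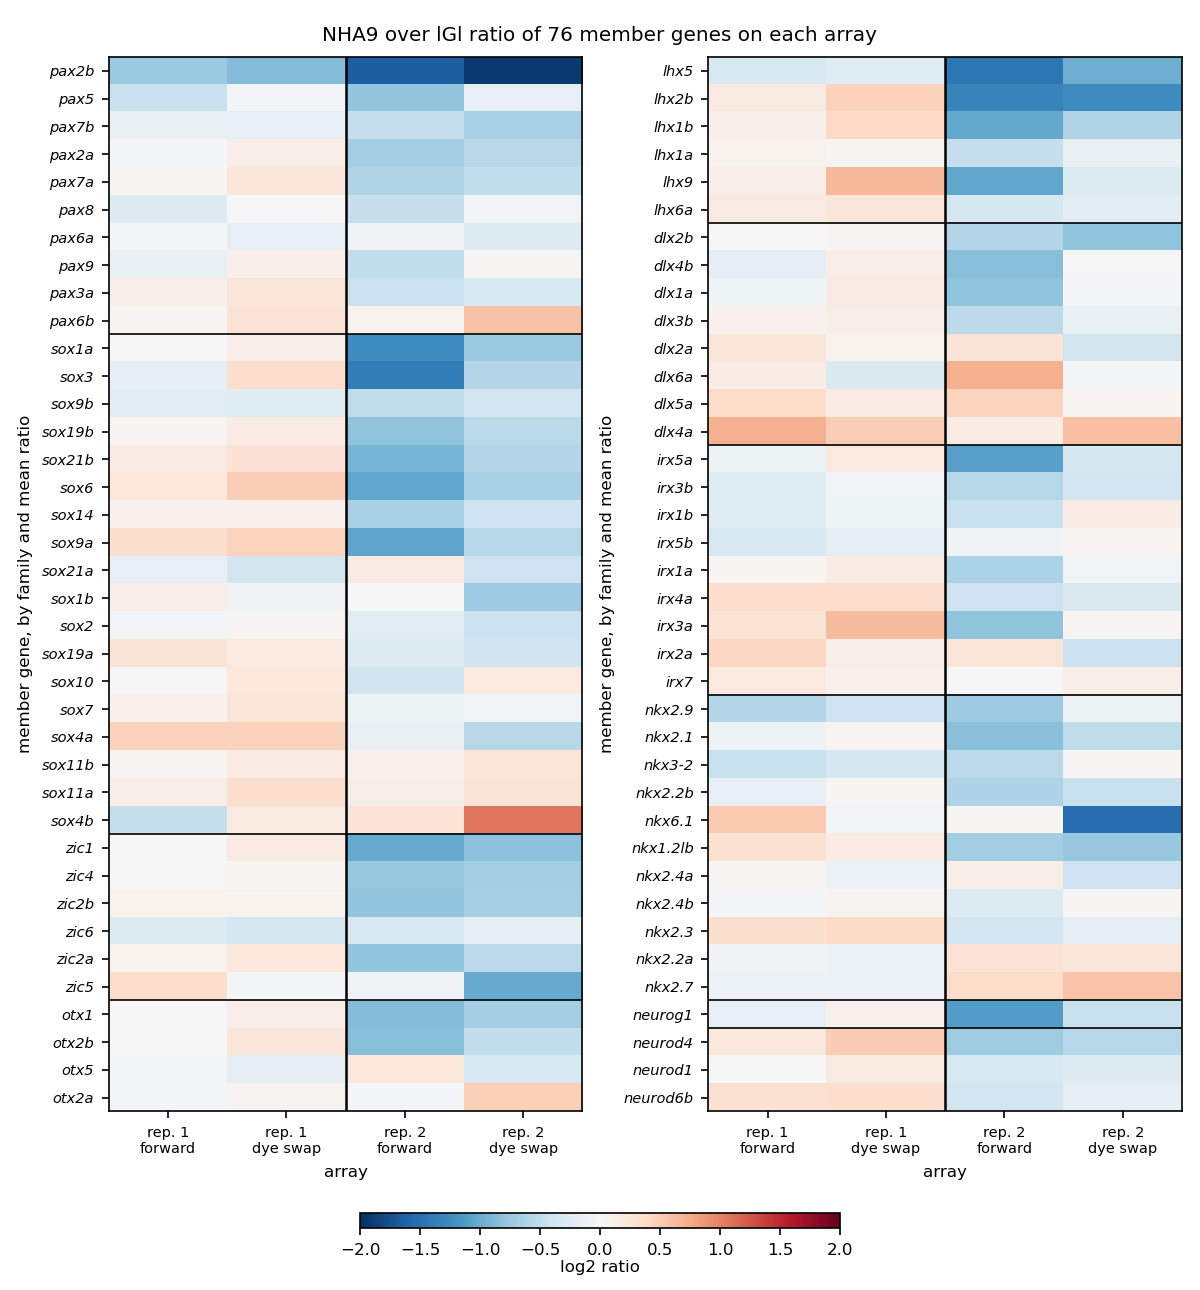
Log2 ratio of NHA9 over lGl (colour, blue below 0 and red above 0) for each of 76 member genes (rows, by family and mean ratio) on each of the 4 arrays (columns). The replicate 2 columns are mostly blue, while replicate 1 is pale.

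Averaged over both replicates, 60 members (76.9%) had a ratio below 0, against 47.5% of all items, with a median of −0.18 against 0.02. This count rested on replicate 2, since without it 25 members were below 0 and without replicate 1 the number was 67. All 4 arrays were below 0 for 10 members (12.8%, against 13.2% of items) and above 0 for 6 (7.69%, against 19.4%). Members spread less than the average item in replicate 1, with an SD over genes of 0.23 against 0.49, and the SD was 0.44 against 0.55 in replicate 2. The array medians of the members were 0.03 and 0.13 in replicate 1 (forward, dye swap) and −0.50 and −0.37 in replicate 2, so both dye orientations placed replicate 2 lower. Across the 78 members, which share arrays and extracts, forward and dye swap arrays correlated at r = 0.648 in replicate 1 and 0.577 in replicate 2. Between the replicates, forward arrays correlated at 0.237 and dye swaps at 0.146. Arrays of opposite orientation from different replicates correlated at −0.112 and −0.147.

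**Figure D2:**
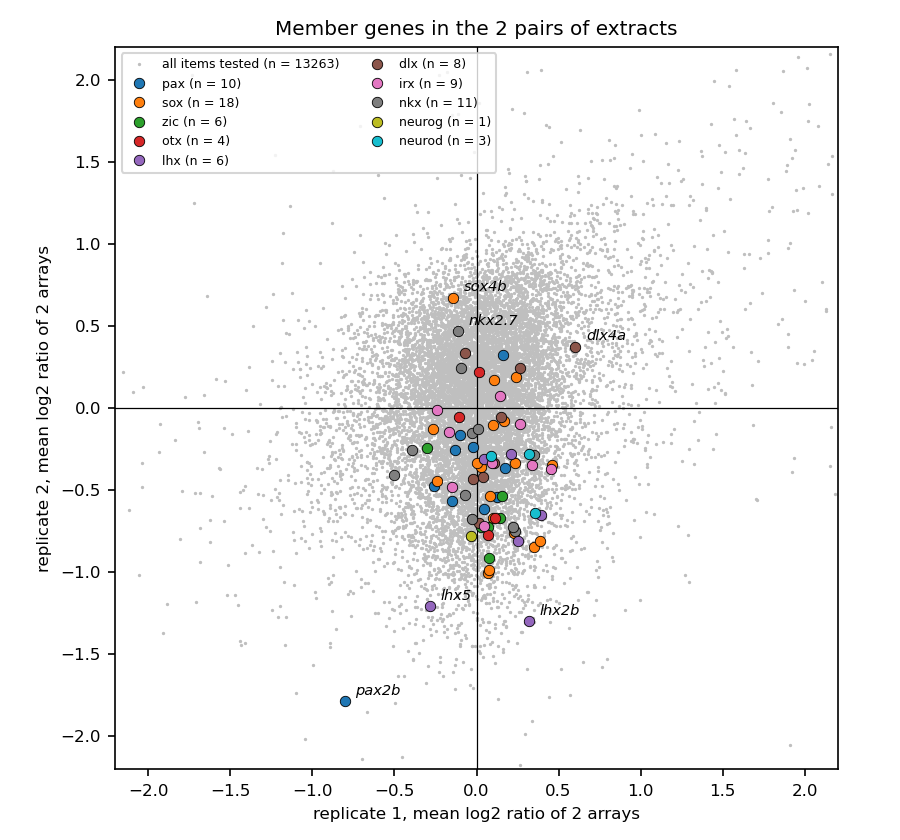
Mean log2 ratio of the 2 arrays of replicate 1 (x axis) against that of replicate 2 (y axis), for 76 members by family (colours) and for all items tested (grey, with 103 items outside the range drawn). Most members lie near 0 in replicate 1 and below 0 in replicate 2, and pax2b stands apart at −0.80 and −1.79.

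In the Pax family, which builds brain boundaries, the dorsal neural tube and the eye, 9 of 10 genes had mean ratios below 0, with a family median of −0.06 in replicate 1 and −0.42 in replicate 2. The Pax genes of the midbrain-hindbrain boundary, pax2a, pax2b, pax5 and pax8, had a median of −0.33, and all 4 were below 0. The other genes of this subgroup were milder than pax2b and none passed. Boundary genes outside the family did not all share this. In replicate 2, en1a, en1b, en2a and en2b stood at −0.40, 0.05, 0.28 and 0.08. The en1a value came from 1 array, since its forward array was at 0.223 and its dye swap at −1.015. pax2a, which is needed to form this boundary, stood at −0.04 and 0.13 in replicate 1 and at −0.67 and −0.55 in replicate 2 over 5 probes. All 5 probes lay between −0.73 and −0.46 in replicate 2. pax5 was at −0.45, −0.06, −0.79 and −0.16 on the 4 arrays (forward then dye swap, replicate 1 then replicate 2; this order is kept below), a mean of −0.37 ± 0.16 (SD, n = 2) with the sign alike on every array. Pax8, which also serves ear and kidney, averaged −0.19 on 1 probe. It was at −0.26, −0.01, −0.46 and −0.05, so both dye swaps were near 0.

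The dorsal genes of the family, active in the roof of the neural tube, the neural crest and muscle progenitors, differed between the replicates. pax7a was at 0.02, 0.23, −0.60 and −0.48 over 5 probes, and pax3a at 0.11, 0.24, −0.43 and −0.30, so both were above 0 in replicate 1 and below 0 in replicate 2. pax7b was below 0 on all arrays, from −0.14 to −0.65. The eye and forebrain genes behaved otherwise. pax6a, a master gene of eye development, stayed between −0.26 and −0.04 on the 4 arrays, the mean of 6 probes. In replicate 2 the pax6a probes disagreed, running from −0.63 to 0.27 with 3 of the 6 below 0. Its duplicate pax6b was above 0 on all 4, from 0.04 to 0.58, with a mean of 0.24 ± 0.12 (limma adjusted p = 0.904, n = 2). pax9, a gene of the sclerotome and pharyngeal pouches, averaged −0.13.

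Among the 18 Sox genes, 13 had mean ratios below 0 and 15 were below 0 in replicate 2. Their subgroups differed in value. The SoxB1 genes, which hold neural progenitors in an undifferentiated state, numbered 6. All 6 had a 2-array mean above 0 in replicate 1 and below 0 in replicate 2, with medians of 0.08 and −0.52. Both arrays were above 0 in replicate 1 for 3 of the 6, and below 0 in replicate 2 for 5. The lowest was sox1a at 0.01, 0.14, −1.26 and −0.75, a mean of −0.47 ± 0.76 (SD, n = 2; limma adjusted p = 0.681). sox3 was at −0.18, 0.34, −1.38 and −0.59. For sox1a and sox3 both arrays of replicate 2 lay below both of replicate 1. sox2, the member of this subgroup linked to stem cell maintenance, was nearer 0 at −0.06, 0.06, −0.23 and −0.43, and sox19b averaged 0.10 and −0.67 in the replicates. The 3 probes of sox19b were spread over 0.95 in their means, the widest span among the members.

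The SoxB2 genes sox14, sox21a and sox21b, which counter SoxB1 proteins, stood at −0.54, −0.13 and −0.76 in replicate 2. SoxC genes act in differentiating neurons, and 3 of the 4 were above 0 in replicate 2, with a median of 0.18. sox11a, averaged over 3 probes, was above 0 on all arrays, between 0.12 and 0.36, with a mean of 0.22 ± 0.03 (n = 2; limma adjusted p = 0.93). Its lowest probe was at −0.06 in replicate 1. The average of the 2 sox11b probes was also above 0 throughout, between 0.05 and 0.25, but 1 of them lay at −0.08 and −0.07 in the replicates. The other 2 SoxC genes moved apart between the replicates. sox4a was at 0.46 and 0.46 in replicate 1 but −0.15 and −0.55 in replicate 2, and sox4b at −0.45 and 0.17, then 0.28 and 1.07, so the copies exchanged order.

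Sox genes of neural crest and cartilage also differed between copies. sox9a, a regulator of cartilage, went from 0.33 and 0.45 in replicate 1 to −1.05 and −0.57 in replicate 2, while sox9b was below 0 on all 4 arrays, between −0.51 and −0.23. The difference between replicates was larger than 1 for sox9a and small for sox9b. sox10, the crest and glial regulator, was near 0 (mean −0.002 ± 0.15, n = 2), but its 2 probes averaged −0.23 and 0.23. sox6, of the SoxD group used in muscle fibres and cartilage, was at 0.20 and 0.49, then −1.04 and −0.65. The endothelial gene sox7 averaged 0.17 and −0.08.

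**Figure D3:**
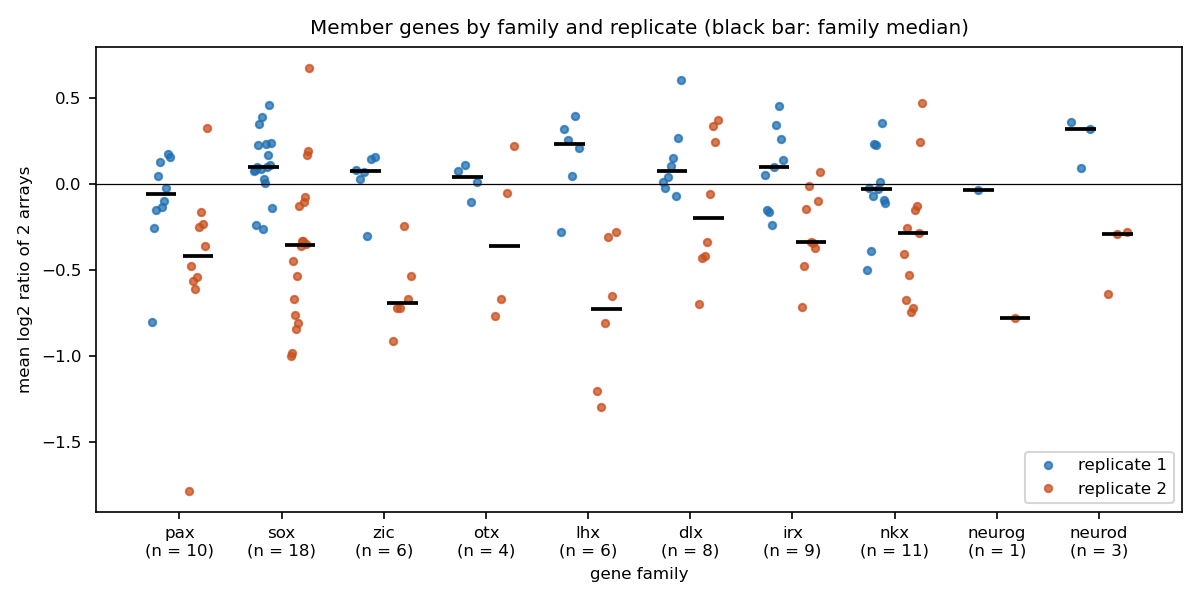
Mean log2 ratio of each member gene (points) in replicate 1 (blue) and replicate 2 (orange) by family, with the family median as a black bar. The median was lower in replicate 2 in each of the 10 families drawn, and the zic and lhx medians reached −0.70 and −0.73.

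Zic genes, which act in the dorsal neural tube and in neural crest induction, were all low in replicate 2. Each of the 6 had a mean ratio below 0, with a median of 0.07 in replicate 1 and −0.70 in replicate 2. zic1 was at −0.002, 0.16, −1.01 and −0.82, a mean of −0.42 ± 0.70 (SD, n = 2; limma adjusted p = 0.734). zic4, its neighbour in assembly GRCz12tu, was at 0.01, 0.04, −0.76 and −0.69. The neighbours zic2a and zic5 averaged −0.67 and −0.54 in replicate 2, and zic2b was at −0.72. For zic1, zic2a, zic2b and zic4 both arrays of replicate 2 were at or below −0.54, while zic5 was at −0.07 on the forward array and −1.01 on the dye swap. zic6 lay between −0.33 and −0.19 on all 4 arrays with no gap between the replicates.

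Otx genes specify forebrain and midbrain. otx1, over 4 probes, was at 0.01, 0.14, −0.86 and −0.68, and otx2b, over 5 probes, at −0.01, 0.24, −0.85 and −0.49. All probes of both genes were below 0 in replicate 2, from −0.87 to −0.66 for otx1 and from −0.75 to −0.43 for otx2b. otx2a, listed as otx1a in the platform's annotation, did not share this and averaged 0.01 and 0.22. otx5, a gene of photoreceptors in retina and pineal organ, averaged −0.11 and −0.05.

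The 6 Lhx genes encode LIM-homeodomain proteins of forebrain, eye, kidney and interneurons. All 6 lay below 0 in replicate 2 with both arrays below both arrays of replicate 1. lhx2b, a gene of eye and forebrain, was at 0.18 and 0.47 in replicate 1 and at −1.33 and −1.27 in replicate 2, a mean of −0.49 ± 1.15 (SD, n = 2; limma adjusted p = 0.646). The forebrain gene lhx5 was below 0 on every array, at −0.32, −0.24, −1.44 and −0.97, with a mean of −0.75 ± 0.65 (limma adjusted p = 0.231). After pax2b this was the lowest mean of a member. lhx1b and lhx9 averaged 0.25 and 0.39 in replicate 1, then −0.81 and −0.65. lhx1a and lhx6a were milder, at −0.31 and −0.28 in replicate 2.

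Dlx genes of the ventral forebrain, pharyngeal arches and placodes split within the family. dlx2b, dlx4b, dlx1a and dlx3b had replicate 2 means of −0.70, −0.43, −0.42 and −0.34. Those of dlx4b and dlx1a came from the forward array, at −0.85 and −0.80, since their dye swaps were at −0.01 and −0.04. dlx4a was above 0 on all arrays at 0.71, 0.49, 0.14 and 0.60, and its mean of 0.49 ± 0.16 (SD, n = 2; limma adjusted p = 0.646) was the highest of any member. The neighbours dlx5a and dlx6a were also above 0 on average, dlx5a at 0.36, 0.17, 0.45 and 0.04. dlx6a was at 0.15 and 0.72 on forward arrays and at −0.29 and −0.04 on dye swaps, so its sign followed the dye orientation. dlx2a averaged 0.05.

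The 9 Irx genes, which subdivide forebrain and hindbrain and prepare tissue for neurogenesis, had small mean ratios. They ran from −0.34 for irx5a to 0.11 for irx7, and 8 of 9 (88.9%, against 46% of all items) were below 0 in replicate 2. Both arrays of replicate 2 were below 0 for only 4 (44.4%, against 32%). The family medians there were −0.44 on the forward and −0.05 on the dye swap array. irx5a was at −0.10, 0.19, −1.09 and −0.35, with its forward arrays farther apart than its dye swaps. Next to it in the genome, irx3a averaged 0.45 in replicate 1 and −0.37 in replicate 2, where its dye swap was at 0.05. irx1b and irx5b did not differ by more than 0.23 between the replicates.

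Nkx genes include targets of Sonic hedgehog signalling in the floor of the neural tube. Of 11, 8 had mean ratios below 0, and the family medians were −0.03 and −0.29. nkx2.9, a ventral gene, was below 0 on all arrays at −0.59, −0.42, −0.72 and −0.10, with a mean of −0.46 ± 0.07 (SD, n = 2; limma adjusted p = 0.693) and replicate means of −0.50 and −0.41. nkx2.1, a gene of the hypothalamus and ventral forebrain, averaged −0.03 and −0.67, the ventral gene nkx2.2b −0.07 and −0.53, and nkx1.2lb 0.23 and −0.72. The motor neuron progenitor gene nkx6.1 differed by dye, at 0.52 and 0.03 on forward arrays and −0.05 and −1.53 on dye swaps, so its replicate 2 mean of −0.75 came from 1 array.

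The Nkx genes had no common course between the replicates. Both arrays of replicate 2 lay below both of replicate 1 for 4 of the 11 (36.4%, against 29.7% of items). They lay above both for 2 (18.2%, against 31.4%). For the 8 Dlx genes these counts were 2 (25%) and 0. By the mean of its arrays, replicate 2 was below 0 for 9 of the 11 Nkx genes (81.8%, against 46% of items). nkx2.7, a gene of heart and pharynx, was at −0.11 and −0.12 in replicate 1 and at 0.36 and 0.58 in replicate 2, and nkx2.2a at −0.08, −0.11, 0.27 and 0.22. nkx2.7 and nkx2.2a were the 2 members below 0 on both arrays of replicate 1 and above 0 on both of replicate 2. nkx3-2, which marks the jaw joint, averaged −0.39 and −0.26, and nkx2.3, a pharyngeal gene, 0.35 and −0.29. Of the 4 members placed in mesoderm, pharynx and other tissue (nkx2.3, nkx2.7, nkx3-2 and pax9), 3 were below 0 in replicate 2, with a median of −0.25. This depended on dye, with medians there of −0.44 on the forward and 0.02 on the dye swap array. Both arrays of replicate 2 were below 0 for 1 of the 4 (25%, against 32% of items).

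The bHLH genes of the Neurog and Neurod families, which commit progenitors to become neurons and drive their differentiation, were all below 0 in replicate 2. neurog1, which directs sensory and early central neurons, stood at −0.16, 0.09, −1.12 and −0.44, a mean of −0.41 ± 0.53 (SD, n = 2; limma adjusted p = 0.747). Both arrays of replicate 2 lay below both of replicate 1. The neuronal differentiation genes were milder on average. neurod4 averaged 0.36 and −0.64, neurod6b 0.32 and −0.28, and neurod1 0.09 and −0.29, all with both arrays of replicate 2 below both of replicate 1.

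By region, medians in replicate 2 were −0.57 for 9 dorsal neural tube and crest genes, −0.54 for 4 boundary Pax genes, −0.41 for 7 ventral genes and −0.34 for 15 eye and forebrain genes. In replicate 1 they were 0.08, −0.20, −0.03 and 0.10. Some depended on dye. In replicate 2 the boundary Pax medians were −0.73 on the forward and −0.36 on the dye swap array. Those of eye and forebrain genes were −0.52 and −0.15, and those of ventral genes −0.28 and −0.41. For 3 of the 7 ventral genes both forward arrays had 1 sign and both dye swaps the other. Groups follow fixed gene lists in which all dlx genes count as eye and forebrain and nkx1.2lb counts as ventral. The lists leave 15 members, lhx5 and nkx2.1 among them, in no group. The differences between regions were not tested.

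Zebrafish carry duplicate copies of many of these genes, and both copies were measured for 19 of the genes described here. Both were below 0 in replicate 2 for 13 of the 19. Counted as single genes, 85.9% of all members lay below 0 there, a share that cannot be compared directly with one of pairs. The order of the 2 copies was alike in both replicates for 10 of the 19 and turned for the others. pax2a exceeded pax2b by 0.85 in replicate 1 and by 1.17 in replicate 2, and dlx4a exceeded dlx4b by 0.63 and 0.81. Copies of sox11 and zic2 differed by at most 0.13 in both replicates. Of 11 pairs of members that are next to each other among protein-coding genes of GRCz12tu, 9 had both genes below 0 in replicate 2, dlx5a with dlx6a and nkx2.2a with nkx2.4a being the others. Whether copies or neighbours were more alike than other members was not tested.

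**Figure D4:**
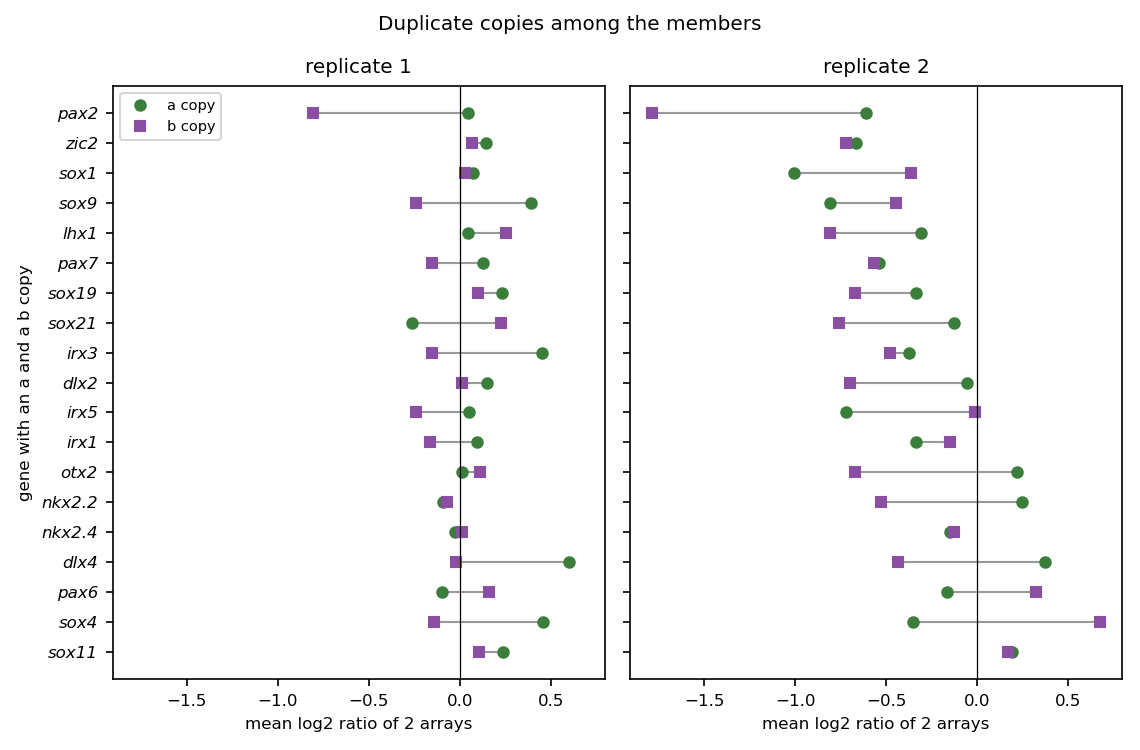
Mean log2 ratio of the a copy (green circles) and the b copy (purple squares) of 19 duplicated member genes in replicate 1 (left) and replicate 2 (right), joined by a grey line. In replicate 2 both copies lie left of 0 for 13 genes, and the sox11 copies both lie right of it.

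The probe means of a gene differed by at most 0.95, a span reached by sox19b, whose probes lay on both sides of 0. The next widest spans were 0.59 for pax7a and 0.56 for pax6a. Of the 41 members with 2 or more probes, 35 were below 0 in replicate 2, and in 30 of these every probe was. Of all 139 member probes, 114 were below 0 in replicate 2 and 49 in replicate 1. The matching shares over all probes of the array were not counted.

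Other genes of neural patterning, from a list that includes homeobox, bHLH and signalling genes outside the 11 families, were examined for comparison. Of 84 listed, 66 were measured and 0 were called in either direction, against 0.792% of all items called lower and 2.04% higher. In replicate 2, 50 (75.8%, against 46% of all items) were below 0, with a median of −0.26. In replicate 1, 18 (27.3%, against 47.3%) were below 0, with a median of 0.13. The lowest in replicate 2, named after their values were seen, were the neuronal bHLH gene bhlhe22 at −1.43 (0.25 in replicate 1) and the POU genes pou3f3a and pou3f3b, both at −1.34. Replicate 2 did not lower all such genes: her9 stood at 0.26 and 0.47, and en2a, of the midbrain-hindbrain boundary, at 0.24 and 0.28.

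Markers of neurons were mixed, while most markers of radial glia and progenitors were lower in replicate 2 than in replicate 1. Of 16 neuronal markers, 10 were below 0 in replicate 2 (median −0.12) and 8 in replicate 1 (median 0.003). The synuclein gene sncga was called lower, at −1.30 ± 0.23 (limma adjusted p = 0.00113, n = 2), with replicate means of −1.47 and −1.14. The lowest in replicate 2 was elavl4, a neuronal RNA-binding protein gene, at −0.04 and −1.69, and the highest was the neurofilament gene nefma at 0.21 and 0.76. Among 11 radial glia and progenitor markers 8 were below 0 in replicate 2, and 0 were called. Their median was −0.31 against 0.04 in replicate 1. Both arrays of replicate 2 lay below both of replicate 1 for 9 of them (81.8%, against 29.7% of all items) and above both for 2. Among the 16 neuronal markers these counts were 6 and 4. The Notch receptor gene notch3 averaged −0.28 and −1.35 in the replicates, and gfap, which encodes a filament protein of glia, −0.21 and −0.86. The glutamine synthetase gene glula was the highest, at 0.38 and 0.58.

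Marker lists of other tissues differed from one another. Skeletal muscle markers (19 genes) had medians of 0.24 and 0.27, and epidermal markers (16) −0.29 and 0.15, with 1 gene called, cdh1 at 1.03 ± 0.24 (limma adjusted p = 0.0259, n = 2). Erythrocyte markers (16) went from 0.60 to 0.09, with 0 called. Some of these medians depended on dye. On forward and dye swap arrays, muscle medians were 0.45 and −0.10 in replicate 1 and 0.27 and −0.38 in replicate 2. In replicate 2 the epidermal medians were 0.14 and −0.15, and the erythrocyte medians 0.39 and −0.01. By count, 2 of 16 erythrocyte, 14 of 16 epidermal and 5 of 19 muscle genes were below 0 in replicate 1, against 6, 6 and 7 in replicate 2. Like most members (82%), most erythrocyte markers (13 of 16, 81%) were lower in replicate 2 than in replicate 1, against 47.7% of all items. Both arrays of replicate 2 lay below both of replicate 1 for 8 erythrocyte, 2 epidermal and 3 muscle genes. The part of these tissues in the members' replicate difference was not tested.

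**Figure D5:**
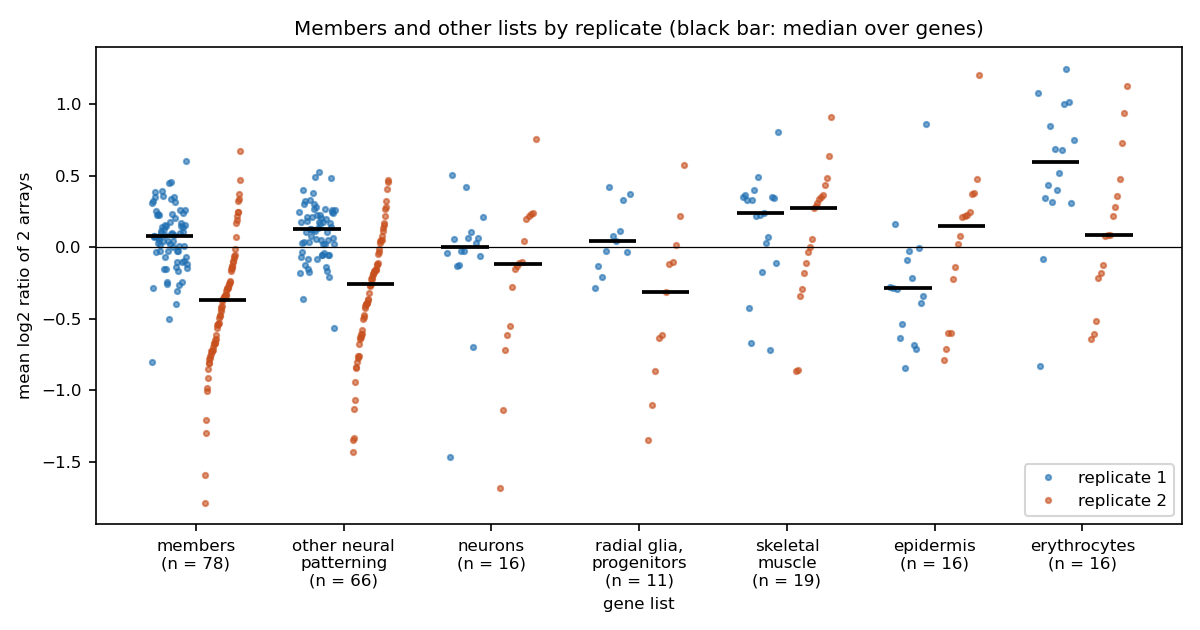
Mean log2 ratio of each gene (points) in replicate 1 (blue) and replicate 2 (orange) for the members, for other neural patterning genes and for cell type marker lists, with the median as a black bar. The member median goes from 0.08 to −0.37 and that of other patterning genes from 0.13 to −0.26. The median of erythrocyte markers also falls, from 0.60 to 0.09, while that of epidermal markers goes from −0.29 to 0.15. For epidermal markers the replicate 2 median is 0.14 on the forward and −0.15 on the dye swap array.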

How the data were processed

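The authors' deposited values were 1 log ratio per probe and array, 20406 probes on 4 arrays with 2 colours each, taken as log2 because they ran from −7.98 to 6.75. That range does not tell log2 from a natural log. Per the labels' protocols, cDNA was labelled directly and samples low in RNA were amplified. The scanner, background correction, normalization, log base and direction of the values are not stated in the labels or files read.

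Symbols came from the platform's annotation table, updated through RefSeq's gene table for GRCz12tu (14620 probes by accession, 1676 by current symbol, 503 by synonym, 11 kept), leaving 3596 probes unnamed. Of 108 protein-coding genes of these families in that table, 78 were analysed here. Probes of a gene were averaged without a filter on low values. Arrays of the same extracts were averaged to 1 replicate. limma 3.58.1 in R 4.3.3 (lmFit, eBayes) tested the mean against 0 with Benjamini-Hochberg adjustment over 13263 items. The fit was also run on simulated data. Those data gave all items 1 SD, as the fit does, so they cannot test that assumption. Prior degrees of freedom were infinite, so all items shared an SD of 0.43.

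The replicate numbers pair the arrays by the labels, which give both arrays of a number the same extracts. Arrays of the same number correlated at 0.747 and 0.465, those of different number at 0.449 and 0.387 in the same orientation and at 0.112 and 0.109 in opposite ones. The labels call the extracts biological replicates. In the fit described above, a p-value set a gene's mean over these 2 pairs against the SD shared by all items, not against the gene's own spread.

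Named members were those past the threshold, the highest and lowest of each family, the 4 highest and 4 lowest of 1 sign on all arrays, and the 4 with the largest replicate difference each way. Other members were named with their family, and values of 2 members counted in the totals are not reported here. Members, lists and the reading of the columns were chosen with earlier results of these data known. Role groups and marker lists were matched by current symbol or a unique synonym. Alternatives changed the reading of dyes, arrays, scaling, probe averaging, items tested and replicates.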

Additional observations from a re-analysis of the deposited data

Results flagged for a closer look

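For 8 members (10.3%, against 10.6% of all items) both forward arrays had 1 sign and both dye swaps the other, a difference between the 2 dye orientations that was not tested. The mean of the forward arrays minus that of the dye swaps was 1.06 for nkx6.1, 0.60 for dlx6a, 0.46 for sox1b, 0.35 for nkx2.4a, −0.19 for nkx2.4b, −0.29 for otx2a, −0.39 for pax9 and −0.40 for sox10.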

How the results depend on the processing

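The call of pax2b held in limma with a replicate block plus dye term (adjusted p = 0.0134), with forward arrays alone, dye swaps alone, scaled, centred or quantile-normalized columns, named genes alone, median probes and probes apart, its adjusted p reaching from 0.000482 to 0.0249 over these. With a replicate block and no dye term it had the mean −1.295 and missed the threshold (adjusted p = 0.0929), so 0 members were called lower. With the dye swap columns turned (reading by dye) pax2b was at 0.10 and 5 members (6.41%) were called lower and 3 (3.85%) higher, against 5.11% and 9.85% of all items, with 1984 items called in all against 376. This reading put the members' median at −0.08 in place of −0.18, and at −0.06 and −0.09 in the replicates, with 52 and 58 members below 0. The number of members called higher was 0 in every other fit run. Left out in turn, the replicates gave 25 to 67 members with a negative ratio, medians from 0.08 to −0.37 and pax2b values from −0.80 to −1.79. Calls could not be counted with 1 pair of extracts. The count of members lower in replicate 2 than in replicate 1 was 64 (82%, against 47.7% of all items). It ran from 51 (reading by dye) to 65 over 7 alternatives. All of these were chosen after seeing the data, as were those for the negative count.

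Without replicate 2 the sign turned for 15 of the 27 named members, lhx2b (0.32), sox9a (0.39), sox6 (0.35) and neurod4 (0.36) among them, and without replicate 1 for neurod6b alone. Under the other alternatives the signs of named members turned as follows. Reading by dye gave dlx2b 0.0445, dlx4a −0.06, irx7 −0.00725, neurod6b −0.0605, nkx2.7 −0.0525, otx2a −0.147, pax6b −0.187, sox11a −0.0948, sox4b −0.355 and zic5 0.331. Dye swaps alone gave dlx6a −0.167 and lhx6a 0.0125. Forward arrays alone gave neurod6b −0.0408, otx2a −0.0293, sox4b −0.0885 and zic5 0.139. Centred columns gave neurod6b −0.0128. Scaled columns gave lhx6a 0.0311, and quantile normalization 0.0322. The cause was not tested. With scaled columns, which reduce the wider spread of replicate 2, the members' medians were 0.11 and −0.28 in the replicates. The 2 pairs of extracts and 1 probe for 37 members limit the precision.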
